A study of Caenorhabditis elegans with 2 samples.

Results

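rpr-1 (WBGene00045238) is the gene for the RNA subunit of RNase P in Caenorhabditis elegans. It is 1 gene of the 46890 annotated genes on the nuclear chromosomes and 1 of 24787 annotated noncoding RNA genes. It was chosen by its measured values, since its region is among the strongest of the deposited peak list, so the values at rpr-1 are given as a description with no test. Chromatin came from whole young adult hermaphrodites of strain YL551, collected 60 hours after synchronization as starved L1 larvae. These worms stably express SNPC-4 with GFP and FLAG fused to its C-terminus, and an antibody to GFP recovered the tagged protein from sonicated chromatin. The design has 1 group of 2 biological replicates, with no other strain, stage or treatment, so no comparison between conditions could be made. All cells of the animal are mixed in each replicate, and the lists do not tell strong binding in a few tissues from weaker binding in many.

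RNase P is a ribonucleoprotein enzyme that removes the 5′ leader from precursor tRNAs, and its RNA subunit carries the catalytic core. In animals that have been studied, the genes for RNase P RNA, RNase MRP RNA and U6 small nuclear RNA (snRNA) are transcribed by RNA polymerase III from promoters that lie upstream of the gene, with a proximal sequence element and a TATA box. SNPC-4 is the worm counterpart of the largest subunit of SNAPc, the snRNA-activating complex, which recognizes the proximal sequence element.

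The peak data are lists of regions in narrowPeak form. One list was thresholded by the irreproducible discovery rate (IDR), which scores how well the ranks of regions match between replicates, and holds 2950 entries. Its entries need not rank alike in both replicates. Of the 2926 on nuclear chromosomes, 2919 overlapped a region of replicate 1 and 2914 a region of replicate 2. Longer candidate lists of 30000 entries each exist for the pooled reads, replicate 1 and replicate 2. The signal of a region is the score given by the authors' peak caller, which scales with depth, and read counts were not available to state the depth. Relative signal is therefore a replicate's signal divided by its median at the IDR peaks, which was 72.2 in replicate 1 and 80.2 in replicate 2.

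In build ce11, rpr-1 occupies I:13463955-13464207 on the plus strand and is 253 nt long. It lies wholly within an intron of ints-8 (WBGene00013021), which encodes a subunit of Integrator, the complex that processes the 3′ ends of snRNAs. ints-8 spans I:13455356-13470371 on the minus strand, so the 2 genes are transcribed in opposite directions. The intron runs from 13462739 to 13464761, both ints-8 transcripts contain it, and at 2023 bp it is the third longest of the 9 introns of the longer transcript. It leaves 1216 bp before and 554 bp after rpr-1.

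The thresholded list held 1 entry at rpr-1, at I:13463544-13464376, with the same boundaries in the pooled list. Its width was 833 bp, and it reached 411 bp upstream of the gene, covered the whole gene and ended 169 bp past it. The region of replicate 1 was 820 bp wide and that of replicate 2 was 809 bp wide. The summit fell 24 bp upstream of the rpr-1 5′ end in the pooled list, 26 bp upstream in replicate 1 and 25 bp upstream in replicate 2. The summits of the replicates thus differed by 1 bp, and all lay in the short stretch just before the transcribed sequence.

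The signal of the rpr-1 region was 9094 in the pooled reads, 3690 in replicate 1 and 5462 in replicate 2. It ranked 6 in the thresholded and pooled lists, 9 in replicate 1 and 6 in replicate 2. In the pooled list the region above it had a signal of 9688 and the region below it 8938. These neighbours were close to rpr-1, so its exact place in the order is not well determined, and the replicates gave different places. Relative signal was 51.1 in replicate 1 and 68.1 in replicate 2, a mean of 59.6 ± 12.1 (SD, n = 2). The value in replicate 2 was 1.33 times that in replicate 1. The authors' -log10 q-value was 3.90 in the pooled list, which is the maximum of that list and therefore gives no order among strong regions.

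A separate SNPC-4 region lay at the host gene 5′ end, assigned to it by distance alone. This was also an IDR peak, with its summit 70 bp upstream of the ints-8 5′ end at 13470371, and that end is 6440 bp from the rpr-1 summit. Its signal was 120 in the pooled reads, 76.5 in replicate 1 and 47.3 in replicate 2. It ranked 1859 in the pooled reads, 1336 in replicate 1 and 3144 in replicate 2. The rpr-1 signal was 75.6 times that of the host 5′ end in the pooled reads, 48.2 times in replicate 1 and 115 times in replicate 2. The rpr-1 region was the higher one in both replicates, while the size of the ratio differed by more than 2-fold between them. A shorter ints-8 transcript begins at 13464846, 915 bp from the rpr-1 summit, and no other candidate of the pooled list lay closer than 1977 bp to the rpr-1 5′ end.

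**Figure D1:**
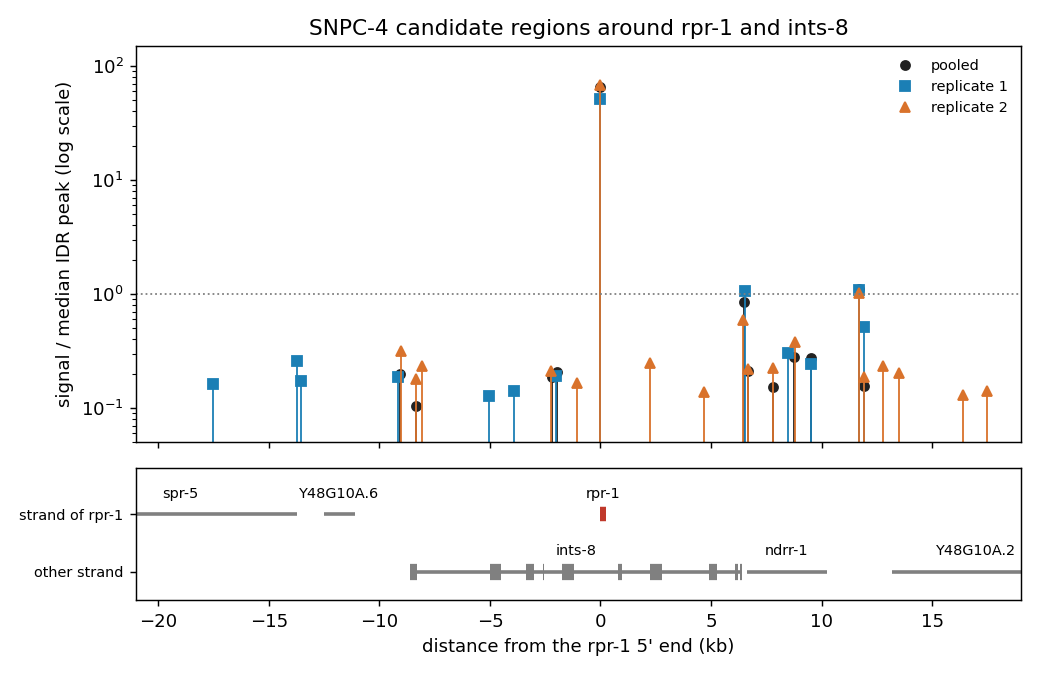
Candidate regions around rpr-1, with distance from the rpr-1 5′ end in kb on the x axis and signal divided by the median IDR peak on a log y axis; circles are the pooled list, squares replicate 1, triangles replicate 2, and the dotted line marks the median IDR peak. In the lower panel thick blocks on ints-8 are exons. The 3 symbols at rpr-1 stand between 51.1 and 68.1, and every other region drawn is near or below the dotted line.

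The rest of ints-8 held weak candidates that were absent from the thresholded list. The pooled list had 3 such regions with signals from 14.6 to 29.1, replicate 1 had 3 from 9.12 to 13.7, and replicate 2 had 6 from 11.1 to 19.9. Of the summed candidate signal between the ends of ints-8, the rpr-1 region held 99.2% in the pooled reads, 99.1% in replicate 1 and 98.3% in replicate 2. The sum takes regions by their summit. The IDR peak at the ints-8 5′ end is not in it, because its summit lies outside the gene in each list. Signal with summits within this gene was thus concentrated at the nested RNA gene in each list. Within 50 kb on either side of rpr-1, the pooled list held 39 other candidates with a median signal of 24.2 and a maximum of 154, and 4 of them were IDR peaks. The protein-coding neighbours of ints-8 are Y48G10A.6 and ndrr-1. ndrr-1 is on the same strand as ints-8, and its 3′ end lies inside the pooled region at the ints-8 5′ end.

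The 50 strongest IDR peaks on the nuclear chromosomes give the scale for the shape of the rpr-1 region. Entries elsewhere are left out of the 50 here and below, while ranks count every entry of the list. Their widths ran from 611 to 1887 bp with a median of 1028.5 bp, and 42 of the 50 were wider than the 833 bp at rpr-1. Peaks are counted by summit here and below. Summits in the same region, such as those of sls-2.2 and sls-2.3, share its width and its strongest replicate values. Among the 10 strongest, rpr-1 had the narrowest region. Over all 2907 nuclear IDR peaks matched in both replicates, 99 were wider than rpr-1. The median width was 456 bp, but 1605 of the peaks had exactly this width. The median is therefore 1 recurring value and says little about how peak widths vary. The rpr-1 summit was also close to the gene. At the 49 of the 50 strongest peaks with an RNA gene within 250 bp, the median summit preceded the 5′ end by 46 bp, and 3 were closer to it than the rpr-1 summit. None of the other 9 among the 10 strongest was closer, and their median together with rpr-1 was 48 bp upstream.

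Replicate 2 gave the higher relative signal at 48 of the 50 strongest peaks, with a median ratio of 1.22, and 11 of the 50 had a ratio above the 1.33 of rpr-1. Over all 2907 matched peaks the median ratio was 1.03. The higher value of rpr-1 in replicate 2 is therefore shared with most of the strongest peaks. The summit difference of 1 bp at rpr-1 compares with a median of 3 bp over the 50 strongest peaks, of which 18 differed by 0 or 1 bp, and with a median of 28 bp over all matched peaks.

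**Figure D2:**
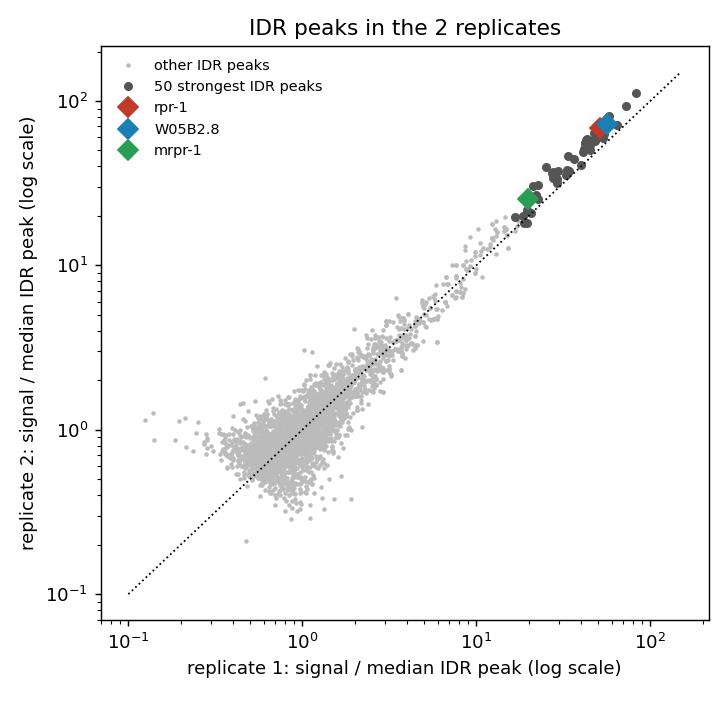
Relative signal of the nuclear IDR peaks in replicate 1 (x axis) and replicate 2 (y axis), both divided by the replicate's median IDR peak and on log scales; the dotted line marks equal values. rpr-1 lies at 51.1 and 68.1, above the line as do 47 of the other 49 strongest peaks, and next to W05B2.8.

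The regions ranked just above rpr-1 were, from the top, those of the small nucleolar RNA (snoRNA) genes Y53F4B.47 and ZK994.7, the spliced leader gene sls-2.4, the snoRNA gene Y37E3.20 and the snRNA gene W05B2.8. snoRNAs guide chemical modification of other RNAs, and spliced leader RNAs donate the leader that is trans-spliced onto worm mRNAs. The strongest, Y53F4B.47, had a pooled signal of 14797, so rpr-1 reached 61.5% of the list maximum. Just below rpr-1 came F01D5.12, sls-2.1, F59C6.15, sls-2.8 and C08D8.3, the last with a pooled signal of 8065. By the distance between log2 relative signals in the 2 replicates, over 786 IDR peaks at RNA genes, the pattern nearest to rpr-1 was that of the snoRNA gene F01D5.12. Its relative signal was 49.1 in replicate 1 and 67.8 in replicate 2, a mean of 58.5 ± 13.3 (SD, n = 2). sls-2.8, sls-2.1, W05B2.8 and F59C6.15 followed. The means of these 5 genes lie from 55.6 to 64.3. Within each replicate W05B2.8 was above rpr-1, and F01D5.12 and sls-2.8 were below it. sls-2.1 and F59C6.15 were above rpr-1 in replicate 1 and below it in replicate 2, so rpr-1 could not be set in order against them. sls-2.1 was above F59C6.15 in both replicates.

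rpr-1 was also compared with other RNA genes of the ncRNA biotype, the annotation class in which it is listed. Such genes number 7762, and 551 of them, or 7.1%, had a summit of the IDR list no more than 250 bp from the 5′ end, and their median signal was 165. rpr-1 ranked 3 by signal among the 551. The 2 genes above it, R12E2.18 and Y37E3.29, shared their summits with sls-2.4 and Y37E3.20, so no summit of this class that was not shared with an snRNA or snoRNA gene was stronger than that of rpr-1.

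The closest relative of RNase P is RNase MRP, whose RNA is encoded in the worm by mrpr-1, and which acts in the processing of ribosomal RNA. mrpr-1 lies at II:7200233-7200418 on the plus strand in ce11. Its region had a pooled signal of 3411 and ranked 44. Its summit lay 26 bp before the gene in the pooled list and in both replicates, next to the 24 to 26 bp seen at rpr-1. The relative signal of mrpr-1 was 19.8 in replicate 1 and 25.5 in replicate 2, a mean of 22.7 ± 4.01 (SD, n = 2). rpr-1 was 2.58 times as strong as mrpr-1 in replicate 1 and 2.67 times in replicate 2, so the ratio moved little between replicates although both genes were higher in replicate 2.

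W05B2.8 lies at III:10989679-10989780 on the plus strand, and its sequence holds ACAGAGA, the box typical of U6, the snRNA at the catalytic centre of the spliceosome. Its relative signal was 56.1 in replicate 1 and 72.4 in replicate 2, a mean of 64.3 ± 11.5 (SD, n = 2). rpr-1 was 0.911 times as strong as W05B2.8 in replicate 1 and 0.941 times in replicate 2, a mean of 0.926 ± 0.022 (SD, n = 2), so W05B2.8 was slightly the stronger in both. The W05B2.8 summit lay 28 bp upstream in the pooled reads, 30 bp upstream in replicate 1 and 28 bp upstream in replicate 2. Reads at W05B2.8 are less certain, since 23 other places in the genome match it with up to 100% identity, while neither rpr-1 nor mrpr-1 matched another place at 80% identity or more over 50 bp.

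The 100 bases upstream of mrpr-1, W05B2.8 and the snRNA gene sup-6 are printed because they hold the first of the motifs described next. mrpr-1 encodes the related RNA, W05B2.8 is close to rpr-1 in signal, and sup-6 is shown as a strong peak without the second motif. They are RefSeq sequence of WBcel235, 5′ to 3′ on the strand of the gene, and the last base is next to the transcribed sequence. Capitals mark AACCC and, after a gap of 6 bases, TGTC, and further on any TATA with the letters that continue it. The windows are II:7200133-7200232 on the plus strand for mrpr-1, III:10989579-10989678 on the plus strand for W05B2.8 and II:12944968-12945067 on the minus strand for sup-6.
mrpr-1: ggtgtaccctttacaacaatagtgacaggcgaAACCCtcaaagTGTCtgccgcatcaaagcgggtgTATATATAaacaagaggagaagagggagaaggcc
W05B2.8: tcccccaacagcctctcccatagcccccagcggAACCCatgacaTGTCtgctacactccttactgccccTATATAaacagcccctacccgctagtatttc
sup-6: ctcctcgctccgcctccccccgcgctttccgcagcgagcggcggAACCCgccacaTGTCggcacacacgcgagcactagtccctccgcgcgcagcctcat

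The first motif, AACCC and TGTC at that spacing, starts 68 bp upstream of mrpr-1, 67 bp upstream of W05B2.8 and 56 bp upstream of sup-6. The TATA stretch starts 34 bp upstream of mrpr-1 and 31 bp upstream of W05B2.8, and sup-6 has none in the window searched. The pooled signal at sup-6 was 7092, at rank 22, with its summit 27 bp upstream of the 5′ end. rpr-1 held the first motif with its first base 45 to 80 bp upstream of the 5′ end, and TATA with its first base 15 to 40 bp upstream. The motifs were searched on the strand of the gene, and were picked after the upstream sequences of rpr-1, mrpr-1 and W05B2.8 had been seen.

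The first motif was rare in this window. It was found at 75 of 24787 RNA genes, or 0.303%, and 66 of these had an IDR summit within 250 bp, where the share over all RNA genes was 4.82%. TATA alone was common, at 18.0% of RNA genes and 18.1% of protein-coding genes. Both together were found at 15 RNA genes, or 0.0605%, and at 0 protein-coding genes. Of these 15, IDR summits lay at 11, namely rpr-1, W05B2.8, mrpr-1, F54D8.7, smy-3, mir-1831, Y48A6C.10, lfor-1, lfor-2, T08B6.62 and Y17G9A.85. In this group W05B2.8 had the highest signal and rpr-1 the next. The median summit preceded the 5′ end by 31 bp at the 11 bound genes with both motifs, and by 48 bp at the 55 bound genes with the first motif alone. The groups overlapped widely, from 104 bp upstream to 55 bp downstream in the former and from 249 bp upstream to 122 bp downstream in the latter. Some of these genes share a summit and several are near-identical copies, so they are not independent points. The counts of bound genes with the first motif or both motifs include rpr-1, mrpr-1 and W05B2.8. The motifs were picked from these genes with their peaks known, so the counts are in part set by that choice. With the first motif alone, 55 of 60 genes had an IDR summit, so the share was not higher where TATA was also present.

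**Figure D3:**
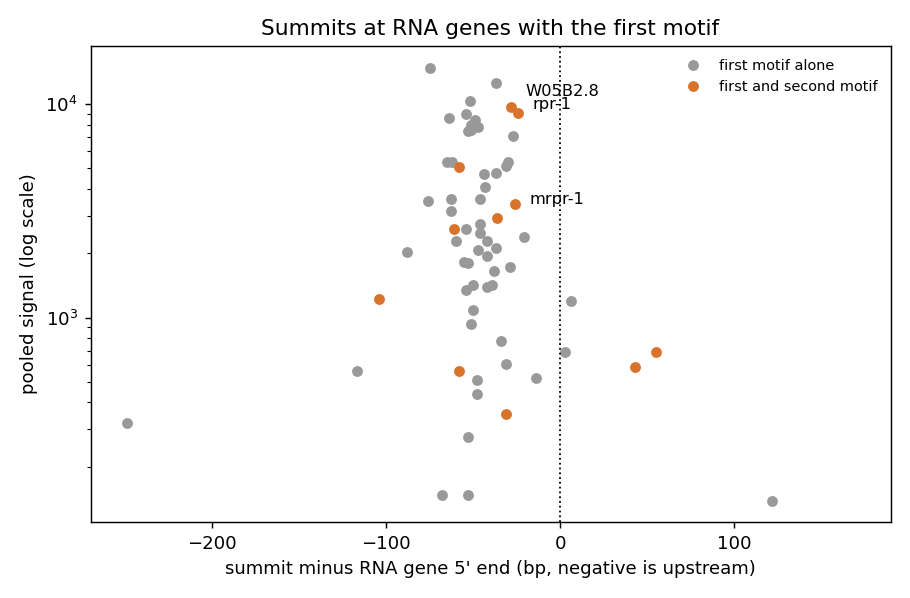
Pooled signal on a log y axis against summit position, in bp from the 5′ end of the RNA gene with negative values upstream, for the 66 RNA genes with the first motif and an IDR summit; orange points also hold TATA. rpr-1 and W05B2.8 sit together at 24 and 28 bp upstream with signals of 9094 and 9688, and mrpr-1 at 26 bp upstream with 3411.

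The base composition of the rpr-1 upstream sequence stood apart from its surroundings. G and C made up 69% of the 100 bases before the gene, against 34.3% of the intron around it and 35.4% of the nuclear chromosomes. The same stretch was 48% G and C at mrpr-1 and 55% at W05B2.8. The sup-6 stretch printed above is richer in G and C than that of rpr-1, so a high share is not particular to rpr-1. The part of base composition in the signals was not tested.

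The genes for the RNA of the signal recognition particle, which brings nascent secreted proteins to the endoplasmic reticulum, showed another pattern. The 5 annotated copies had relative signals far below rpr-1. The mean was 1.19 ± 0.050 at srpr-1.2, 0.771 ± 0.101 at srpr-1.1 and 1.17 ± 0.297 at srpr-2.1 (SD, n = 2 for each), and these 3 had an IDR peak. srpr-3 had 0.261 ± 0.0561 (SD, n = 2) and no IDR peak. srpr-2.2 had a candidate region in replicate 2 alone, with a signal of 107. The pooled summits lay 58, 93 and 134 bp downstream of the 5′ end at srpr-1.2, srpr-1.1 and srpr-2.1, inside the transcribed sequence. Their positions varied more between replicates than at rpr-1. The srpr-1.2 summit was 3 bp upstream in replicate 1 and 89 bp downstream in replicate 2, that of srpr-1.1 was 129 and 111 bp downstream, and that of srpr-2.1 was 132 and 227 bp downstream. These copies are 92.7% to 99.3% identical to other places in the genome, so reads may have been divided among them.

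The position of rpr-1 inside an intron is common among worm RNA genes. Of all annotated RNA genes, 8353 lie wholly within an intron of a protein-coding gene, and an IDR summit lay within 250 bp of the start of 450 of them, or 5.39%, at 279 distinct summits. This share is close to the 4.82% of all RNA genes. rpr-1 ranked 5 by signal among these 450 genes. The nested genes above it were ZK994.7 in pxn-1, Y37E3.20 and Y37E3.29, which share 1 summit in pcyt-2.1, and W05B2.8 in dhc-4. Nested genes on the strand opposite to the host, as rpr-1 is, had an IDR summit at 228 of 4581, or 4.98%, and those on the same strand at 222 of 3772, or 5.89%. The share was 49.7% for nested tRNA genes (143 of 288), 69.6% for snRNA genes (39 of 56), 26.1% for snoRNA genes (46 of 176) and 0.581% for piRNA genes (29 of 4994). It was 6.83% for the nested ncRNA biotype that includes rpr-1 (186 of 2723), against 7.1% of all genes of that biotype. For the other classes the share over nested and other genes together is not given here, so these values do not describe an effect of nesting.

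A second IDR summit within 500 bp of a host 5′ end, as seen at ints-8, was present for 77 of the 450 bound nested genes, or 17.1%. Taken by distinct summit, this was 50 of 279, or 17.9%, and the median ratio of nested signal to host 5′ end signal was 1.06. At 32 of these 50 the host summit itself lay within 250 bp of the 5′ end of an RNA gene, so it cannot be assigned to the host promoter. With such host summits left out, a choice made after seeing the data, 23 of the 279 summits had a host summit, or 8.24%, and the median ratio was 1.22. For scale, 7.47% of all 19971 protein-coding genes, hosts or not, carried an IDR summit by the same distance rule. The 8.24% is close to this value, but the 7.47% includes summits at RNA genes and is a share of genes. A difference between host genes and other genes was not tested. The summit at the ints-8 5′ end is 450 bp from the nearest RNA gene 5′ end and was kept. Among nested summits with an IDR peak at the host 5′ end, on either count, 1 other exceeded the ratio of 75.6 at rpr-1. It was shared by the ncRNA gene B0361.13 and the microRNA gene mir-2214 in an intron of B0361.11, with a ratio of 82.5. Next came F32B5.9 in cpz-1 with a ratio of 11.5, whose host summit is at an RNA gene, and smy-2 in C33A12.3 with 11.0. Since rpr-1 was chosen for its strong peak, this place in the order is a description. The order also leaves out hosts without an IDR peak at the 5′ end, where some contrasts were larger than at rpr-1. ZK994.7 and Y37E3.20 had nested signals of 12519 and 10347 over pooled host candidates of 71.1 and 46.3. W05B2.8, also above rpr-1 in signal, had no pooled candidate at its host 5′ end.

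**Figure D4:**
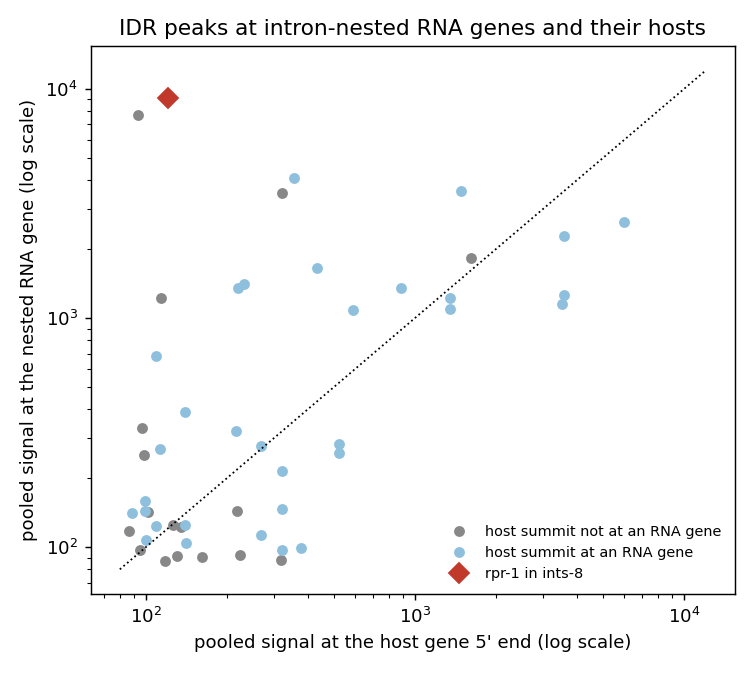
Pooled signal at the nested RNA gene (y axis) against pooled signal at the host gene 5′ end (x axis), both on log scales, for the 50 distinct nested summits whose host 5′ end also has an IDR peak; blue points are the 32 whose host summit is itself at an RNA gene, and the dotted line marks equal values. rpr-1 in ints-8 is at 9094 and 120, and 1 other point, at 7704 and 93.4, is farther from the line.

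The Integrator genes were examined because rpr-1 lies in one of them, ints-8. That gene and its known peak are included in the counts, so the share is in part set by the choice of locus. Of 11 annotated Integrator genes, 3 had an IDR summit within 500 bp of a 5′ end, or 27.3% (95% exact binomial interval 6.02% to 61.0%), against 7.47% of 19971 protein-coding genes. These were ints-4, ints-9 and ints-8. ints-4, which encodes part of the module that holds the RNA-cutting subunits, had a pooled signal of 419 at rank 309, with 173 in replicate 1 and 266 in replicate 2. ints-9, a relative of the catalytic subunit, had 135 at rank 1577, with 40.3 in replicate 1 and 95.1 in replicate 2. The highest of these 3 was far below the rpr-1 region, and with 11 genes the interval includes the share over all protein-coding genes.

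The genes of the protein subunits of RNase P and RNase MRP were also examined. Of 7 annotated genes, popl-1, popl-4, popl-5, popl-7, Y37E11AM.4, H35B03.2 and Y62E10A.24, an IDR summit lay at 0. With 7 genes this allows a share of up to 41.0%, and so does not tell them apart from the 7.47% of all protein-coding genes. Pooled candidates lay near 3 of them. The strongest was at popl-4, with a signal of 33.3, and popl-7 and Y62E10A.24, which overlap, shared 1 with a signal of 15.8. popl-7 was listed by its name, while its annotated product is Protein kish. With this overlap the 7 genes are not 7 independent loci. The highest relative signals near these genes were 0.238 in the pooled list, 0.396 in replicate 1 at popl-4 and 0.383 in replicate 2 at H35B03.2, against 51.1 and 68.1 in the replicates at rpr-1.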

How the data were processed

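ChIP-seq of SNPC-4-GFP was analysed as the authors' deposited narrowPeak lists in ce11 and ce10. The signal column is the score deposited by the authors, the -log10 column is the q-value deposited by the authors, and the other unit is the deposited summit offset, converted to 1-based positions. The aligner and peak caller were not given in the sources used here, nor was the IDR threshold, the control library was not analysed here, and read depth is unknown. Per the labels, the replicates are biological.

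Genes, introns and sequence came from RefSeq WBcel235, the assembly of ce11. The entry of each list overlapping rpr-1 was taken, and replicates were divided by their median signal at nuclear IDR peaks. Summits were assigned to RNA genes within 250 bp and to protein-coding 5′ ends within 500 bp, as tested on simulated positions. Copies were sought with BLAST 2.17.0. No gene could be matched by the name of stem-bulge RNA, and 5 names of the Integrator list had no annotated gene.

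rpr-1, the gene lists and the comparators were chosen with earlier results of these data known. Named genes were rpr-1, ints-8 and its neighbours, 5 regions to either side in rank, the 5 nearest patterns, list members with an IDR summit and the strongest nested genes. The motifs, sup-6, R12E2.18, Y37E3.29 and the genes with both motifs or high nested-to-host ratios were singled out after their values were seen. Alternatives used ce10, other distances, other divisors and each replicate alone. Tables were made with Python 3.11.15 and pandas 2.3.3.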

Additional observations from a re-analysis of the deposited data

How the results depend on the processing

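Of 45 alternative values, 32 stayed close to the reported one and 13 moved. Close meant within 1 SD between replicates for a value, within the 95% exact binomial interval for a share, and within 1.5 times for a count. Some of the 32 could not move. Where the reported value is a mean of 2 replicates, either replicate alone always lies within 1 SD of it. For rank, summit and width, the pooled list repeats the thresholded entry. Such values are therefore no check on the result. Dividing by the median of each whole candidate list in place of the median IDR peak gave rpr-1 a relative signal of 267. With 1 replicate left out at a time, the rank ranged from 6 to 9, the summit from -26 to -25 bp, the width from 809 to 820 bp, and the rpr-1 share of ints-8 candidate signal from 98.3% to 99.1%. In ce10 the rpr-1 ranks were those of ce11. Nested RNA genes with an IDR summit made up 3.83% at 100 bp, 6.93% at 500 bp and, in an alternative added after seeing the data, 12.5% without piRNA genes. Bound nested genes with an IDR summit at the host 5′ end made up 9.78% at 250 bp and 28.4% at 1000 bp, and 7.78% without host summits at RNA genes, also added after seeing the data. These shares follow from the distance or class used. No paired analysis was possible because there is 1 group. Depth is unknown, the q-values are at their maximum, and 2 replicates of 1 group allow no test at rpr-1.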
